A study of Mus musculus with 24 samples.

Results

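The m6A pulldown of lesioned mouse dorsal root ganglia was examined against its input, gene by gene and library by library. It holds 5 of the 24 samples of the series: 3 libraries of RNA recovered with an m6A antibody (SNLD1 IP 1, 2 and 3) and 2 libraries of the RNA before the pulldown (SNLD1 input 1 and 2). They were chosen by their labels, with no measured value used. All 5 came from L4/5 ganglia of wild type C57BL/6 mice on day 1 after the lesion (SNLD1). The protocol names a sham operation or a crush of the sciatic nerve. Poly(A) RNA was selected by 2 rounds on oligo(dT) beads, and libraries were built by Smart-seq2. The pulldown used the Synaptic Systems m6A antibody, and the inputs carry the antibody label "none". The same design in naive ganglia of the same strain and genotype, with 3 IP and 2 input libraries, stood beside it. The labels do not say whether replicates came from separate animals, so every p-value measures only the spread between these samples, which may be technical.

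N6-methyladenosine (m6A) is an internal mark on messenger RNA. A nuclear writer complex around Mettl3 and Mettl14 places it on an adenosine within a short sequence motif, YTH domain proteins read it, and Fto and Alkbh5 remove it. It is best known for marking transcripts that are turned over quickly, such as those of stress-induced and transcription factor genes, while many housekeeping transcripts carry little of it. In a pulldown, transcripts rich in the mark are expected to gain share over the input and poorly marked ones to lose share. Sensory neurons of these ganglia respond to a cut or crushed peripheral axon with a broad transcriptional programme, in which Atf3, Jun and Sox11 are well known.

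In SNLD1 IP 1 and 2, the class medians of potassium channels, immediate-early genes, protocadherins, Zfp zinc finger proteins and axon guidance proteins lay above both SNLD1 inputs. The medians of oxidative phosphorylation, the vacuolar ATPase, glycolysis and the cytoplasmic ribosome lay below both SNLD1 inputs in IP 1 and 2. In SNLD1 IP 3 the immediate-early genes lay above both inputs, and glycolysis and the vacuolar ATPase below both, while the medians of potassium channels, protocadherins, Zfp genes, axon guidance and oxidative phosphorylation lay between the inputs and that of the cytoplasmic ribosome lay level with the higher input. The fitted median log2 IP over input was 1.20 for 66 potassium channel genes and 1.16 for 25 immediate-early genes. It was -1.18 for 82 oxidative phosphorylation genes and -1.06 for 83 cytoplasmic ribosomal protein genes, beside 0.10 over all 14705 genes tested. No single gene passed the test across all genes.

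The libraries differed widely in depth. Total counts were 4493565, 1534778 and 9830471 in SNLD1 IP 1, 2 and 3, against 927807 and 19653733 in SNLD1 inputs 1 and 2. On these raw totals, a count of 3 corresponded to 0.67, 1.95 and 0.31 CPM (counts scaled to a common library total) in SNLD1 IP 1, 2 and 3. It corresponded to 3.23 and 0.15 CPM in SNLD1 inputs 1 and 2. The further scaling of gene levels described below shifts these floors somewhat. SNLD1 IP 3 resembled the inputs: its Spearman correlation across tested genes was 0.94 with SNLD1 input 2 and 0.85 with SNLD1 input 1, but 0.79 with SNLD1 IP 1 and 0.71 with SNLD1 IP 2. SNLD1 IP 1 and IP 2 correlated at 0.73, and the SNLD1 inputs at 0.83 with each other. Ribosomal protein genes held 0.63%, 0.23% and 2.39% of the counts of SNLD1 IP 1, 2 and 3, against 1.81% and 2.48% of those of SNLD1 inputs 1 and 2. SNLD1 IP 3 thus lay closer to the inputs than to the other IP libraries, so gene levels are given per library. Class medians are given per library for many classes. A class median given alone is the fitted one and does not show that the IP libraries had the same direction. Gene levels below are CPM of the libraries after scaling with edgeR's TMM factors, and the fitted log2 IP over input compares group means, in which a library with a high level weighs more. SNLD1 IP 1, IP 3 and input 1 correlated at 0.97, 0.97 and 0.96 with the naive library of the same name, but IP 2 at 0.82 and input 2 at 0.89, which is below the 0.94 of input 2 with SNLD1 IP 3.

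**Figure D1:**
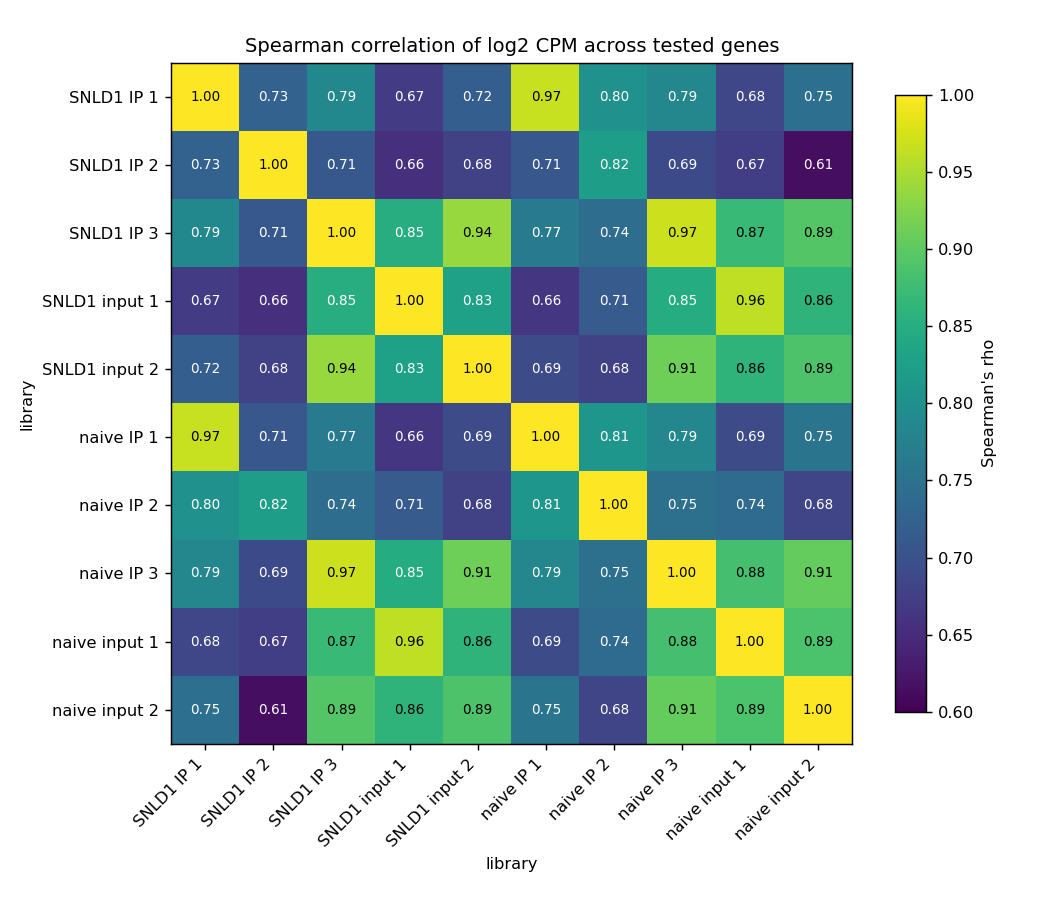
Spearman correlation of log2 CPM across tested genes between the 10 MeRIP-seq libraries, with SNLD1 libraries first and naive libraries after them. SNLD1 IP 3 stood at 0.94 with SNLD1 input 2 and at 0.71 with SNLD1 IP 2, and SNLD1 IP 1 at 0.97 with naive IP 1.

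Individual genes were tested with edgeR's quasi-likelihood test, on all 10 pulldown and input libraries as 4 groups. None of 14705 genes passed an adjusted p of 0.05 in either direction (percent called 0 for higher and 0 for lower), and the lowest Benjamini-Hochberg adjusted p was 0.79. At an unadjusted p under 0.05, 242 genes lay higher in SNLD1 IP and 366 lower (1.65% and 2.49%). DESeq2 on the same libraries also called 0 genes, with 623 higher and 613 lower at an unadjusted p under 0.05. Limma-voom with library quality weights called 0 as well, with 218 higher and 867 lower. The median standard error of a gene's log2 ratio was 1.09, so that ratios well above 2-fold were within the spread between libraries for a typical gene. Without IP 3 of both conditions, 119 genes were called lower and 0 higher.

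A plainer count asked for complete separation of the libraries. In 1519 genes all 3 SNLD1 IP libraries lay above both SNLD1 inputs (10.3% of genes tested), and in 1778 genes all 3 lay below both (12.1%). These counts grow when a library is left out, since fewer libraries then have to separate. The genes above numbered 2868 without IP 2, 2915 without IP 3, 2857 without input 1 and 3876 without input 2. The genes below numbered 3797 without IP 3, 4003 without input 1 and 3644 without input 2. The shares of 10.3% and 12.1% are the background for every class count that follows.

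In all, 42 gene classes with 10 or more tested genes were described by their medians. Each of the 6 possible pairs of 1 IP over 1 input gave a class median, which was set against the median of all genes in that pair. The class lay above all genes in every pair for 5 classes: potassium channels, immediate-early genes, replication histones, axon guidance genes and sensory neuron transcription factors. It lay below in every pair for 7 classes: oxidative phosphorylation, the vacuolar ATPase, glycolysis, small nucleolar RNA host genes, neuropeptides, kinesins and dyneins, and macrophage markers. Some margins were close to 0. In IP 3 over input 2 they were 0.03 for axon guidance and for sensory neuron transcription factors, 0.07 for potassium channels and -0.07 for kinesins and dyneins. In IP 3 over input 1 oxidative phosphorylation was at -0.02. In the shallow pair of IP 2 over input 1, sensory neuron transcription factors were at 0.08. Sox and Kruppel-like factor genes and regeneration-associated genes had the identical value there. It stands for a median ratio of exactly 0, which a gene with no count in either library gives, so this margin rests on a tie. Over all genes, the median log2 over the mean input was 0.24, -0.46 and 0.12 in SNLD1 IP 1, 2 and 3. The standard deviation of the class medians over the mean input was 1.42 and 1.28 in SNLD1 IP 1 and 2, and 0.45 in SNLD1 IP 3. The classes thus spread far apart in IP 1 and IP 2 and little in IP 3.

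**Figure D2:**
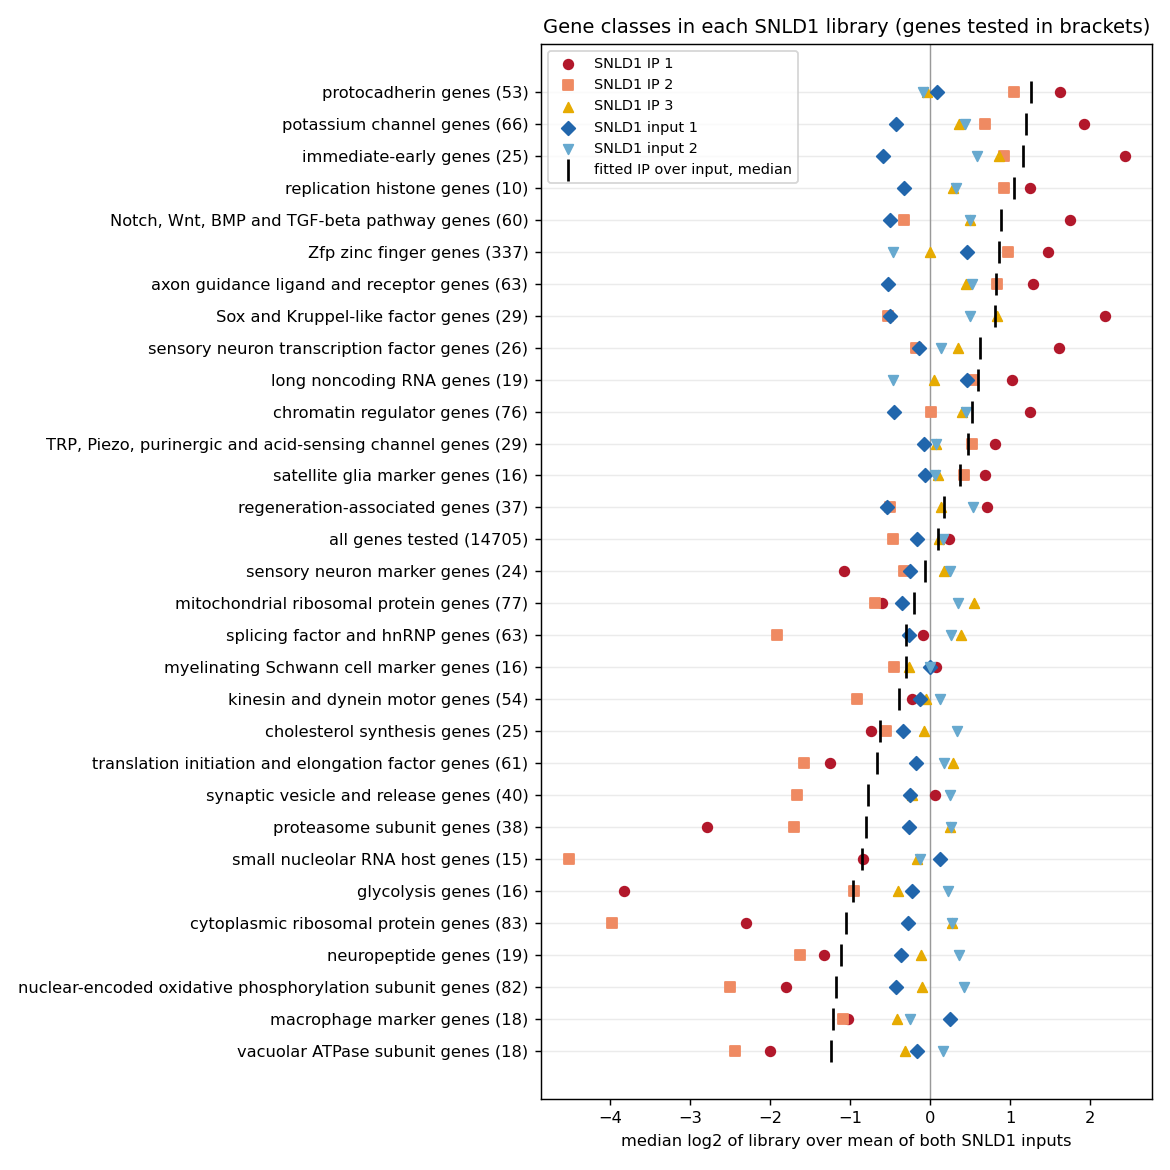
Median log2 of each SNLD1 library over the mean of both SNLD1 inputs for 30 gene classes and for all genes, with genes tested in brackets and a black tick for the median of the fitted IP over input. For potassium channel and immediate-early genes SNLD1 IP 1 lay far to the right, at 1.92 and 2.43. There IP 2 stood at 0.69 and 0.92, and IP 3 at 0.37 and 0.87. SNLD1 IP 1 and 2 lay far to the left for cytoplasmic ribosomal and oxidative phosphorylation genes, while SNLD1 IP 3 stayed near the inputs.

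Nuclear-encoded subunits of oxidative phosphorylation, which build the mitochondrial respiratory chain and ATP synthase, were a large class low in IP. Of 82 tested genes, 73 lay below 0, 29 had all SNLD1 IP libraries below both inputs and 0 had all above. Their median was -1.80, -2.51 and -0.10 log2 over the mean input in SNLD1 IP 1, 2 and 3, against -0.42 and 0.42 in SNLD1 inputs 1 and 2. SNLD1 IP 3 thus lay between the inputs. Summed over the class, the level was 13448, 9948 and 42184 CPM in SNLD1 IP 1, 2 and 3, against 35667 and 60126 CPM in SNLD1 inputs 1 and 2. Ndufb5, a complex I subunit, stood at 46.3, 27.2 and 134 CPM in SNLD1 IP 1, 2 and 3, against 403 and 534 CPM in SNLD1 inputs 1 and 2. Its log2 IP over input was -2.75 (SE 1.05, edgeR adjusted p 0.79). Cox7a2, a subunit of cytochrome oxidase, stood at 264, 45.8 and 395 CPM in the SNLD1 IP libraries and at 1049 and 1382 CPM in the SNLD1 inputs, a log2 ratio of -2.37 (SE 0.99). Atp5d, of the ATP synthase, stood at 32.5, 32.8 and 66.2 CPM in the SNLD1 IP libraries and at 86.8 and 364 CPM in the SNLD1 inputs. In all of these genes every IP library lay below both inputs, with IP 3 the closest to them.

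The vacuolar ATPase, the proton pump of lysosomes and synaptic vesicles, had the lowest median of the classes with 10 or more genes, -1.24. Of its 18 tested subunit genes, 9 had all SNLD1 IP libraries below both inputs and 0 had all above. Summed over the class the level was 1336, 1779 and 6277 CPM in SNLD1 IP 1, 2 and 3, against 8317 and 9266 CPM in SNLD1 inputs 1 and 2, with no overlap. Atp6v0b stood at 54.2, 177 and 263 CPM in the SNLD1 IP libraries and at 785 and 1269 CPM in the SNLD1 inputs (log2 -2.64, SE 0.94). Atp6v0e2 stood at 23.6, 182 and 272 CPM in the SNLD1 IP libraries and at 1227 and 860 CPM in the SNLD1 inputs (log2 -2.71, SE 1.06). Both encode parts of the membrane sector of the pump. The all-gene median subtracted, the class stood at -1.34. This ranged from -2.79 without IP 3 of both conditions to -0.78 without SNLD1 IP 1.

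Glycolysis genes showed the highest share of separated members. Of 16 genes, 9 (56.3%) had all SNLD1 IP libraries below both inputs, beside 12.1% of all genes, and 0 had all above. The class summed to 889, 6281 and 12699 CPM in SNLD1 IP 1, 2 and 3, against 13980 and 23598 CPM in SNLD1 inputs 1 and 2. The median over the mean input was -3.83 in SNLD1 IP 1, -0.95 in IP 2 and -0.41 in IP 3, against -0.23 and 0.23 in inputs 1 and 2. Here IP 1, not IP 2, stood farthest from the inputs. Ldha, which turns pyruvate into lactate, stood at 17.3, 47.5 and 433 CPM in the SNLD1 IP libraries and at 1353 and 1429 CPM in the SNLD1 inputs (log2 -3.06, SE 1.37). Pkm, pyruvate kinase, stood at 31.8, 564 and 1483 CPM in the SNLD1 IP libraries and at 2718 and 3660 CPM in the SNLD1 inputs (log2 -2.20, SE 1.30). Aldoa, aldolase, followed the same order, with 203, 915 and 2951 CPM in the SNLD1 IP libraries and 3299 and 9722 CPM in the SNLD1 inputs.

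Cytoplasmic ribosomal protein genes split the IP libraries. Their median over the mean input was -2.31 and -3.98 in SNLD1 IP 1 and 2 but 0.28 in SNLD1 IP 3, against -0.28 and 0.28 in SNLD1 inputs 1 and 2. Of 83 tested genes 75 lay below 0, 27 had all IP libraries below both inputs and 0 had all above. Rplp2, a protein of the ribosomal stalk, stood at 36.3, 6.22 and 55.4 CPM in SNLD1 IP 1, 2 and 3, against 159 and 242 CPM in SNLD1 inputs 1 and 2 (log2 -2.61, SE 1.13). Rps13 and Rps21, of the small subunit, had log2 ratios of -2.57 (SE 1.14) and -2.27 (SE 1.05). Genes of this class have many processed copies in the genome, and how the authors' counting shared reads between them is not given in the sources used here. Mitochondrial ribosomal protein genes were more mixed: of 77 tested, 9 had all IP libraries above both inputs and 10 had all below, with a median of -0.20. Over the mean input they stood at -0.60, -0.69 and 0.55 in SNLD1 IP 1, 2 and 3. Mrpl41 stood at 2174, 1911 and 1195 CPM in the SNLD1 IP libraries and at 317 and 516 CPM in the SNLD1 inputs (log2 2.08, SE 0.84). Mrps26 stood at 121, 75.2 and 36.4 CPM in the SNLD1 IP libraries and at 2.38 and 19.5 CPM in the SNLD1 inputs (log2 2.73, SE 1.01).

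Other housekeeping classes also lay low. Proteasome subunit genes had a fitted median of -0.80, with 35 of 38 below 0 and 8 separated below the inputs. Over the mean input they stood at -2.79, -1.70 and 0.25 in SNLD1 IP 1, 2 and 3, so that IP 3 was not low. Psmb2, a subunit of the catalytic core, stood at 91.3, 147 and 418 CPM in the SNLD1 IP libraries and at 748 and 903 CPM in the SNLD1 inputs. Translation factor genes had a median of -0.66, with 11 of 61 separated below and 4 above, and stood at -1.25, -1.58 and 0.29 over the mean input in SNLD1 IP 1, 2 and 3. Eif5a stood at 17.97, 80.9 and 323 CPM in the SNLD1 IP libraries and at 426 and 1179 CPM in the SNLD1 inputs (log2 -2.51, SE 1.14). Small nucleolar RNA host genes had a median of -0.84, with 6 of 15 separated below and 0 above. In this class SNLD1 IP 2 stood apart, at a median of -4.52 over the mean input, against -0.84 in IP 1 and -0.17 in IP 3. Gas5, a growth-arrest transcript that carries small nucleolar RNAs in its introns, stood at 90.8, 25.5 and 154 CPM in the SNLD1 IP libraries and at 340 and 246 CPM in the SNLD1 inputs. Splicing factor and hnRNP genes lay closer to all genes, with a median of -0.30 and 3 of 63 separated above and 8 below. Their library medians were -0.09, -1.91 and 0.39 over the mean input in SNLD1 IP 1, 2 and 3. Srsf7 stood at 58.4, 49.2 and 109 CPM in the SNLD1 IP libraries and at 449 and 170 CPM in the SNLD1 inputs (log2 -2.10, SE 0.78).

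Classes tied to neuronal secretion had fitted medians below 0, with differences between the IP libraries. Neuropeptide and granin genes had a median of -1.12, with 7 of 19 separated below the inputs and 2 above. Npy, neuropeptide Y, stood at 3.63, 0 and 4.22 CPM in SNLD1 IP 1, 2 and 3, against 15.5 and 65.4 CPM in SNLD1 inputs 1 and 2 (log2 -3.87, SE 1.38). Nmb, neuromedin B, stood at 67.1, 63.4 and 159 CPM in the SNLD1 IP libraries and at 163 and 498 CPM in the SNLD1 inputs. Synaptic vesicle and release genes had a median of -0.77, with 7 of 40 separated below and 1 above. Over the mean input this class stood at 0.06, -1.66 and -0.23 in SNLD1 IP 1, 2 and 3. SNLD1 inputs 1 and 2 stood at -0.26 and 0.26. In IP 1 the class lay between the inputs, though below the 0.24 of all genes. Synpr, a synaptic vesicle membrane protein, stood at 148, 98.4 and 398 CPM in the SNLD1 IP libraries and at 1680 and 442 CPM in the SNLD1 inputs (log2 -2.30, SE 0.89). Kinesin and dynein genes had a median of -0.39 and held members on both sides. Kif3b, a kinesin of anterograde transport, stood at 198, 143 and 89.5 CPM in the SNLD1 IP libraries and at 41.6 and 52.3 CPM in the SNLD1 inputs. Dynlrb1, a light chain of dynein, stood at 263, 204 and 618 CPM in the SNLD1 IP libraries and at 920 and 1381 CPM in the SNLD1 inputs.

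Among the classes above all genes, immediate-early genes, which neurons and glia switch on within minutes of a stimulus, had the highest share of separated members. Of 25 tested, 23 lay above 0 and 11 (44.0%) had all SNLD1 IP libraries above both inputs, beside 10.3% of all genes. Summed over the class the level was 3640, 4664 and 1426 CPM in SNLD1 IP 1, 2 and 3, against 860 and 1053 CPM in SNLD1 inputs 1 and 2, with no overlap. The class median lay above that of all genes in each IP library, with 2.43, 0.92 and 0.87 over the mean input in IP 1, 2 and 3. Klf2, a zinc finger transcription factor, stood at 53.1, 14.7 and 8.21 CPM in the SNLD1 IP libraries and at 1.19 and 3.50 CPM in the SNLD1 inputs (log2 3.26, SE 1.24). Klf4, of the same family, stood at 19.8, 20.9 and 10.1 CPM in the SNLD1 IP libraries and at 1.19 and 3.07 CPM in the SNLD1 inputs (log2 2.82, SE 1.19). Homer1, a scaffold of postsynaptic receptors, stood at 42.2, 52.6 and 23.5 CPM in the SNLD1 IP libraries and at 4.76 and 9.88 CPM in the SNLD1 inputs (log2 2.37, SE 1.04). Input 1 gave the lower value for all of these genes, and it is the shallowest library, where 1.19 CPM is a single count.

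Potassium channel genes, which set the resting potential and firing of sensory neurons, had a median of 1.20. Of 66 tested, 54 lay above 0, 17 had all SNLD1 IP libraries above both inputs and 3 had all below. Kcng4 stood at 27.4, 102 and 7.18 CPM in SNLD1 IP 1, 2 and 3, against 2.38 and 5.77 CPM in SNLD1 inputs 1 and 2 (log2 3.37, SE 1.29). Kcna4, a voltage-gated channel of the Shaker type, stood at 61.3, 29.4 and 11.7 CPM in the SNLD1 IP libraries and at 5.94 and 8.59 CPM in the SNLD1 inputs (log2 2.20, SE 0.98). Kcnn1, a calcium-activated channel, stood at 46.2, 70.7 and 44.5 CPM in the SNLD1 IP libraries and at 2.38 and 24.8 CPM in the SNLD1 inputs. In the summed class IP 3 lay between the inputs, with 3558, 2752 and 1510 CPM in SNLD1 IP 1, 2 and 3, against 1025 and 1700 CPM in SNLD1 inputs 1 and 2. Sodium and calcium channel genes were closer to all genes, with a median of 0.26 and 1 of 30 separated above. Their library medians were 1.03, -0.27 and -0.10 over the mean input in SNLD1 IP 1, 2 and 3.

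Protocadherins, cell adhesion proteins of which many are encoded in gene clusters, had the highest median of the classes with 10 or more genes, 1.27. Of 53 tested, 48 lay above 0, 10 were separated above the inputs and 1 below. Over the mean input the class stood at 1.63 and 1.05 in SNLD1 IP 1 and 2, but at -0.04 in IP 3, against 0.09 and -0.09 in inputs 1 and 2. Pcdhb10 stood at 6.59, 27.2 and 5.47 CPM in the SNLD1 IP libraries and at 1.19 and 1.17 CPM in the SNLD1 inputs (log2 3.44, SE 1.45). Members of these clusters are close copies of each other, so reads may have been split between them.

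Zfp zinc finger genes, the largest class, had a median of 0.86, with 277 of 337 above 0. Of these genes 47 (13.9%) had all SNLD1 IP libraries above both inputs and 4 (1.19%) all below, beside 10.3% and 12.1% of all genes. The quartiles of the class were 0.27 and 1.49, against -0.85 and 1.004 for all genes. Its median was 1.48 and 0.97 in SNLD1 IP 1 and 2 and 0 in IP 3, against 0.46 and -0.46 in inputs 1 and 2. Zfp90 stood at 65.1, 73.6 and 28.7 CPM in the SNLD1 IP libraries and at 8.32 and 12.2 CPM in the SNLD1 inputs (log2 2.42, SE 0.88). Zfp131 stood at 182, 140 and 56.0 CPM in the SNLD1 IP libraries and at 27.3 and 26.4 CPM in the SNLD1 inputs (log2 2.23, SE 0.88).

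Axon guidance genes had a median of 0.82, with 52 of 63 above 0, 7 separated above the inputs and 0 below. Notch, Wnt, BMP and TGF-beta pathway genes had a median of 0.89, with 11 of 60 separated above and 3 below. Their library medians were 1.75, -0.33 and 0.50 over the mean input in SNLD1 IP 1, 2 and 3. In IP 2 the class thus lay below the mean input, though above the -0.46 of all genes. Hey2, a target of Notch, stood at 112, 63.4 and 38.9 CPM in the SNLD1 IP libraries and at 13.1 and 26.1 CPM in the SNLD1 inputs (log2 1.84, SE 0.89). Sox and Kruppel-like factor genes had a median of 0.81, with 6 of 29 separated above and 0 below. In that class SNLD1 IP 2, at -0.52 over the mean input, lay below IP 1 at 2.19 and IP 3 at 0.84. Chromatin regulator genes had a median of 0.53, with 60 of 76 above 0, 15 separated above and 2 below, and stood at 1.25, 0.02 and 0.40 over the mean input in SNLD1 IP 1, 2 and 3. Kmt2e stood at 68.7, 28.9 and 52.2 CPM in the SNLD1 IP libraries and at 15.5 and 22.3 CPM in the SNLD1 inputs. Sensory neuron transcription factor genes had a median of 0.62, with 23 of 26 above 0, and stood at 1.61, -0.17 and 0.35 over the mean input in SNLD1 IP 1, 2 and 3. Maf, a factor of touch neurons, stood at 437, 95.6 and 114 CPM in the SNLD1 IP libraries and at 53.5 and 55.4 CPM in the SNLD1 inputs (log2 1.99, SE 0.97). Replication histones numbered only 10 tested of 68 in the table, most of whose transcripts lack a poly(A) tail, and their median was 1.05.

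The remaining classes lay between these. The median of cholesterol synthesis genes was -0.63, with 6 of 25 separated below and 0 above, and Hmgcs1 stood at 287, 280 and 1033 CPM in the SNLD1 IP libraries and at 2755 and 852 CPM in the SNLD1 inputs. Tubulin genes, counted with the gamma-tubulin complex genes, had a median of -0.08 but 7 of 21 separated below and 1 above. Their library medians were split, at -1.885, 0.29 and -0.48 over the mean input in SNLD1 IP 1, 2 and 3. Heat shock and DnaJ chaperone genes had a median of -0.02, with 5 of 68 separated above and 7 below. They stood at -0.11, -1.14 and 0.34 over the mean input in SNLD1 IP 1, 2 and 3. Dnajb1, a cochaperone induced by stress, stood at 284, 538 and 180 CPM in the SNLD1 IP libraries and at 46.4 and 110 CPM in the SNLD1 inputs (log2 2.08, SE 0.84). The median of interferon-stimulated genes was 0.19, with 4 of 27 separated above and 3 below. Rtp4, one of them, stood at 146, 179 and 163 CPM in the SNLD1 IP libraries and at 51.1 and 39.8 CPM in the SNLD1 inputs. Neurofilament and microtubule-associated protein genes had a median of 0.24, with 5 of 29 separated above and 4 below, and in this class Stmn2, stathmin of growing axons, stood at 969, 566 and 2727 CPM in the SNLD1 IP libraries and at 5509 and 3358 CPM in the SNLD1 inputs. TRP, Piezo, purinergic and acid-sensing channel genes, the transducers of touch, heat and pain, had a median of 0.48, with 3 of 29 separated above and 1 below. Genes of Mas-related receptors had a median of 0.52, and glutamate, GABA, glycine and nicotinic receptor genes, with Grina, 0.26. Collagen and laminin genes had a median of -0.33, with 6 of 41 separated above and 3 below. They stood at -0.12, -1.50 and 0.41 over the mean input in SNLD1 IP 1, 2 and 3.

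Of the 12 genes of smallest p whose IP libraries all lay above the inputs, log2 ratios ran from 2.18 to 5.47 apart from Nanp, each with an edgeR adjusted p of 0.79. Tor4a, a torsin family ATPase, had the smallest p, with 5.77, 82.6 and 99.0 CPM in SNLD1 IP 1, 2 and 3, against 1.19 and 1.47 CPM in SNLD1 inputs 1 and 2 (log2 5.47, SE 1.53). Its lowest IP value, in IP 1, was still above both inputs. Vamp5, a vesicle SNARE protein, stood at 180, 471 and 123 CPM in the SNLD1 IP libraries and at 16.6 and 40.7 CPM in the SNLD1 inputs (log2 3.15, SE 0.96). Nupr1, a stress-induced nuclear protein, had the tightest libraries of the group, with 157, 155 and 142 CPM in the SNLD1 IP libraries and 34.5 and 32.6 CPM in the SNLD1 inputs (log2 2.18, SE 0.76). Rpp38, a subunit of RNase P, stood at 214, 210 and 76.0 CPM in the SNLD1 IP libraries and at 34.5 and 25.1 CPM in the SNLD1 inputs (log2 2.49, SE 0.83). Nanp had 7, 1 and 384 counts in SNLD1 IP 1, 2 and 3, against 0 and 0 counts in SNLD1 inputs 1 and 2, so that its high value came from IP 3 alone. Its mean level in IP was at least 86.6-fold higher than the level that 3 counts over the input group would give. Fam58b, Lsm10 of the U7 small nuclear ribonucleoprotein, Prss23, Nrbf2, Pomgnt2 and 2210016L21Rik made up the group with Gadd45g. The gene spans of Vamp5, Rpp38, Nupr1 and Pomgnt2 overlap another gene.

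Gadd45g, a stress-induced regulator of the cell cycle, combined separated libraries with many mapped m6A sites. It lies at chr13:51846675-51848475 (GRCm38.p6) and stood at 222, 539 and 65.3 CPM in SNLD1 IP 1, 2 and 3, against 8.32 and 38.5 CPM in SNLD1 inputs 1 and 2 (log2 3.51, SE 1.16). All IP libraries lay above both inputs, with IP 3 closest. The authors' list of single-base m6A sites from lesioned ganglia, made by crosslinking the antibody to RNA (miCLIP, 1 library), held 10 sites within its span, and the naive list held 0. In naive ganglia Gadd45g was separated the same way (log2 3.77, SE 1.18) at lower levels. It stood at 39.8, 90.5 and 11.8 CPM in naive IP 1, 2 and 3, against 4.12 and 2.73 CPM in naive inputs 1 and 2. None of its sites had 3 or more mutated reads, and how far the naive list covered this gene was not tested. The sites lie on the plus strand of chromosome 13 (mm10). The following 4 are shown because they carry the motif that was most frequent in the list or had the most mutated reads, in the list's own letters, with the central adenosine in capitals.
Gadd45g chr13:51847558-51847558: ggAcc
Gadd45g chr13:51847747-51847747: agAcc
Gadd45g chr13:51847894-51847894: ggAcc
Gadd45g chr13:51847993-51847993: ggAcc
These sites had 4, 8, 11 and 12 reads over the base, of which 1, 2, 2 and 1 were mutated. Of all 18677 sites of the lesion list, 15.8% had ggAcc, 11.1% ggAca and 11.04% ggAct. The letters GGAC opened 37.9% of sites in the list and 6 of the 10 in Gadd45g.

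Of the 12 genes of smallest p whose IP libraries all lay below the inputs, log2 ratios ran from -3.91 to -2.68 apart from Car1, each with an edgeR adjusted p of 0.79. Vdac1, the main channel of the mitochondrial outer membrane, stood at 44.0, 19.2 and 121 CPM in SNLD1 IP 1, 2 and 3, against 627 and 469 CPM in SNLD1 inputs 1 and 2 (log2 -3.15, SE 0.91). Lars2, the mitochondrial leucyl-tRNA synthetase, stood at 15.7, 27.7 and 41.7 CPM in the SNLD1 IP libraries and at 325 and 256 CPM in the SNLD1 inputs (log2 -3.35, SE 0.86). Spryd3 stood at 2.80, 6.79 and 19.04 CPM in the SNLD1 IP libraries and at 114 and 138 CPM in the SNLD1 inputs (log2 -3.71, SE 1.07). In each of these genes IP 3 was the highest IP library, and yet it lay well below the lower input. Map1lc3a, the autophagosome protein LC3A, stood at 35.1, 24.9 and 118 CPM in the SNLD1 IP libraries and at 188 and 1182 CPM in the SNLD1 inputs (log2 -3.53, SE 1.03). Copa, of the COPI vesicle coat, stood at 12.4, 33.4 and 51.5 CPM in the SNLD1 IP libraries and at 408 and 115 CPM in the SNLD1 inputs. Cmtm5, Agmo, Ly6e, 1700037H04Rik and 0610007P14Rik were also in the group, with Car1. Car1, carbonic anhydrase of red blood cells, had 0, 0 and 0 counts in SNLD1 IP 1, 2 and 3, against 19 and 66 counts in SNLD1 inputs 1 and 2, which is at least 73.7-fold lower than the input mean when 3 counts over the IP group are taken as the floor. Of the genes named from this group only Vdac1, Spryd3, Map1lc3a and Ly6e have spans that overlap no other gene.

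**Figure D3:**
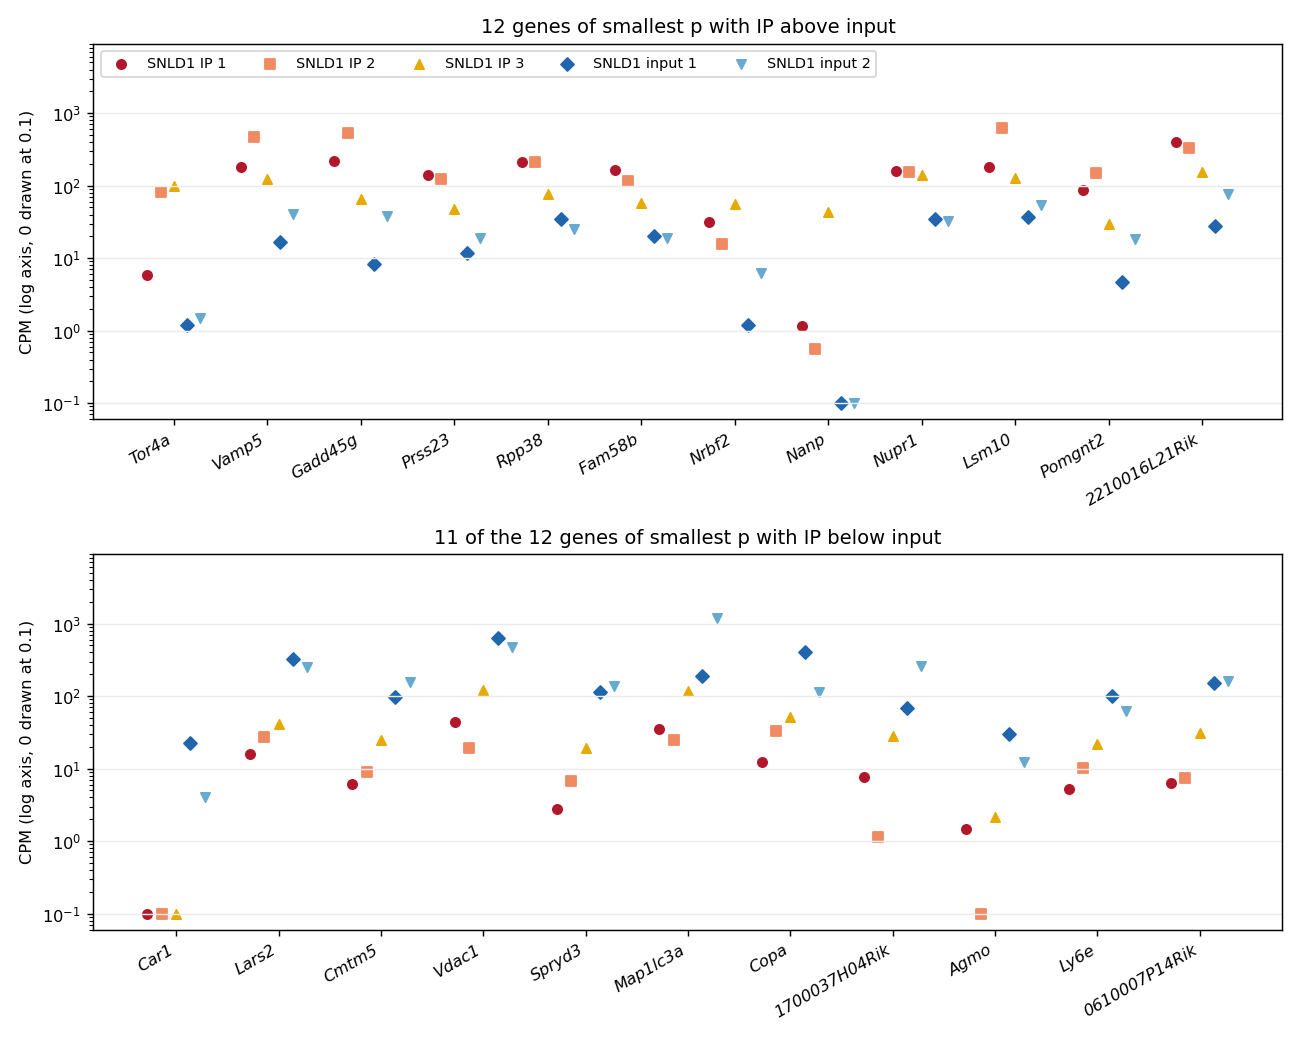
CPM in each SNLD1 library on a log axis for the 12 genes of smallest p above the inputs (upper panel) and 11 of the 12 below (lower panel), with counts of 0 drawn at 0.1. No IP point crosses an input point, and SNLD1 IP 3 is often the IP library closest to the inputs in the lower panel.

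Genes of the injury response were not uniform. Atf3, the transcription factor that marks injured sensory neurons, stood at 1840, 3995 and 976 CPM in SNLD1 IP 1, 2 and 3, against 495 and 577 CPM in SNLD1 inputs 1 and 2 (log2 2.08, SE 1.07). Its span held 15 sites of the lesion list and 0 of the naive list, whose coverage of this gene was not tested. The site with the most mutated reads relative to coverage lies on the minus strand at base 191183121 of chromosome 1 (mm10) and reads ggAcc, with 3 of 6 reads mutated. Bdnf, a neurotrophin, stood at 1130, 1184 and 478 CPM in the SNLD1 IP libraries and at 284 and 201 CPM in the SNLD1 inputs (log2 1.94, SE 0.90). Atf3 and Bdnf were the only 2 of 8 such genes with all IP libraries above both inputs. Gadd45a stood at 864, 128 and 312 CPM in the SNLD1 IP libraries and at 49.9 and 142 CPM in the SNLD1 inputs (log2 2.17, SE 1.05). Jun stood at 832, 79.2 and 124 CPM in the SNLD1 IP libraries and at 8.32 and 146 CPM in the SNLD1 inputs (log2 2.14, SE 1.33). In Gadd45a and Jun the groups overlapped, with IP 2 below input 2 in both and IP 3 below input 2 in Jun. Flrt3 had a log2 ratio of 1.02 (SE 0.98), Gap43 of the growth cone -0.67 (SE 0.83), Sox11 -0.15 (SE 0.92) and Sprr1a -0.09 (SE 1.54). Over the whole list of 37 regeneration-associated genes the median was 0.17, with 5 separated above and 4 below, close to all genes. Their library medians were 0.71, -0.50 and 0.14 over the mean input in SNLD1 IP 1, 2 and 3.

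Transcripts of the m6A machinery itself mostly overlapped between IP and input. Wtap, a regulatory subunit of the writer, stood at 173, 29.4 and 106 CPM in SNLD1 IP 1, 2 and 3, against 5.94 and 19.4 CPM in SNLD1 inputs 1 and 2 (log2 2.96, SE 1.10). Ythdf2, the reader tied to decay, stood at 454, 118 and 132 CPM in the SNLD1 IP libraries and at 77.3 and 111 CPM in the SNLD1 inputs (log2 1.32, SE 1.01). These were the 2 of 10 genes with complete separation. Mettl3 stood at 8.74, 19.2 and 43.0 CPM in the SNLD1 IP libraries and at 44.0 and 37.9 CPM in the SNLD1 inputs (log2 -0.78, SE 0.92). Mettl14 stood at 17.5, 3.96 and 26.6 CPM in the SNLD1 IP libraries and at 26.2 and 21.1 CPM in the SNLD1 inputs (log2 -0.54, SE 0.93). The erasers Fto and Alkbh5 had log2 ratios of 0.03 (SE 0.77) and -0.03 (SE 1.17). Ythdf1, Ythdf3 and Ythdc1 had ratios of 0.89, 1.35 and 0.83, and Ythdc2 -0.87, each with overlapping groups.

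Listed long noncoding RNAs had a fitted median above that of all genes, 0.61, with 4 of 19 separated above and 0 below. Their library medians over the mean input were 1.02, 0.53 and 0.05 in SNLD1 IP 1, 2 and 3. SNLD1 inputs 1 and 2 stood at 0.46 and -0.46, so IP 3 lay between them. Malat1, a nuclear RNA, stood at 6896, 4284 and 3812 CPM in SNLD1 IP 1, 2 and 3, against 2425 and 1285 CPM in SNLD1 inputs 1 and 2 (log2 1.43, SE 0.90), and held 15 sites of the lesion list. Neat1, the scaffold of paraspeckles, stood at 209, 91.1 and 41.7 CPM in the SNLD1 IP libraries and at 61.8 and 26.1 CPM in the SNLD1 inputs (log2 1.39, SE 0.92). Meg3, an imprinted RNA with 25 sites, stood at 342, 153 and 312 CPM in the SNLD1 IP libraries and at 166 and 219 CPM in the SNLD1 inputs (log2 0.48, SE 0.79). IP 2 lay below input 1 for Meg3, so that its groups overlapped, and IP 3 lay below input 1 for Neat1. Over all 564 tested genes annotated as long noncoding, the fitted median was 0.68, beside 0.08 over 14009 protein-coding genes. The long noncoding genes stood at 0.86, -0.52 and 0.35 over the mean input in SNLD1 IP 1, 2 and 3. The protein-coding genes stood at 0.21, -0.46 and 0.11, so in IP 2 the long noncoding genes were not the higher.

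The number of miCLIP sites in a gene was set beside its IP over input. Sites were assigned to gene spans of GRCm38.p6 with introns and without regard to strand, and 98.97% of the lesion list fell in a span. The fitted median log2 IP over input was -0.06 for 9417 genes with 0 sites, 0.22 for 2038 genes with 1 site, 0.34 for 2039 genes with 2 to 4, 0.56 for 775 genes with 5 to 9 and 0.65 for 400 genes with 10 or more. Genes with all IP libraries below both inputs made up 13.98% of those with 0 sites and 3.25% of those with 10 or more. Genes with all IP libraries above both inputs made up 8.95% of those with 0 sites and numbered 40 of the 400 with 10 or more, both near the 10.3% of all genes. Between these bins the share was higher, at 12.5% with 1 site, 12.9% with 2 to 4 and 14.8% with 5 to 9. The fitted difference of medians between 10 or more and 0 sites was 0.70. It rested on SNLD1 input 1: without that library it was -0.02, and without input 2 it was 1.80. Over input 1 alone, genes with 10 or more sites had medians of 1.89, 1.43 and 1.28 in SNLD1 IP 1, 2 and 3. Over input 2 alone they had 0.25, -0.19 and -0.41. The inputs themselves differed by site number, at -0.86 in input 1 and 0.86 in input 2 around their mean for genes with 10 or more sites.

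**Figure D4:**
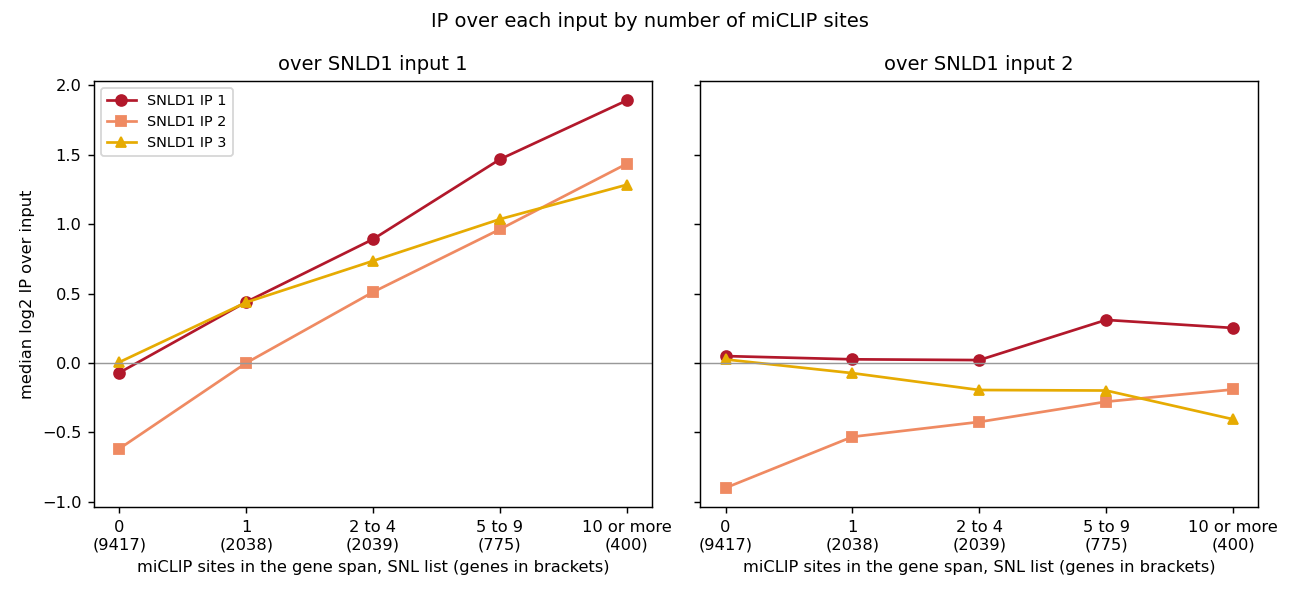
Median log2 of each SNLD1 IP library over SNLD1 input 1 (left) and over SNLD1 input 2 (right), by the number of miCLIP sites of the lesion list in the gene, with genes in brackets. All 3 IP libraries climb with site number over input 1, while over input 2 IP 2 climbs from -0.90 to -0.19 and IP 3 declines from 0.03 to -0.41.

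Genes with many sites were also highly expressed. The RNA-seq of the same condition, which shares no library with the ratio, served to split genes into low, middle and high tertiles of level. A site was present in 24.4%, 35.6% and 47.4% of genes in the low, middle and high tertile, while the median log2 IP over input was 0.58, 0.23 and -0.43. Within the high tertile, the median was -0.69 for genes with 0 sites and 0.39 for 185 genes with 10 or more. Within the low tertile, these values were 0.45 and 0.75, the second from 76 genes. Over the mean input, genes with 10 or more sites in the high tertile stood at 0.37, 0.53 and 0.19 in SNLD1 IP 1, 2 and 3, and those with 0 sites at -1.14, -1.36 and -0.13. SNLD1 inputs 1 and 2 stood at -0.52 and 0.52 for the former and at 0.17 and -0.17 for the latter. Over input 2 alone, the former had medians of -0.12, -0.05 and -0.26 in IP 1, 2 and 3. The latter had -0.95, -1.16 and 0.14. Of the sites in the lesion list, 364 had 3 or more mutated reads, so most rest on fewer. The length of the gene span showed no steady trend, with fitted medians of 0.27, 0.05, -0.01, -0.00 and 0.24 from the shortest to the longest quintile.

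The 10 genes with the most sites in the lesion list, between 38 and 105, all had a log2 ratio above 0, from 0.25 to 1.64, and none reached an unadjusted p under 0.05. Map1b, a microtubule-associated protein with 67 sites, stood at 3373, 4397 and 3562 CPM in SNLD1 IP 1, 2 and 3, against 1852 and 1871 CPM in SNLD1 inputs 1 and 2 (log2 1.02, SE 0.89). Map1a, with 105 sites, stood at 499, 246 and 223 CPM in the SNLD1 IP libraries and at 36.9 and 285 CPM in the SNLD1 inputs (log2 0.99, SE 0.92). Only Map1b and Sptbn1, a spectrin, had all IP libraries above both inputs. Plec, with 97 sites, stood at 80.9, 1039 and 76.6 CPM in the SNLD1 IP libraries and at 27.3 and 227 CPM in the SNLD1 inputs, so that its ratio of 1.64 (SE 1.26) came from IP 2. Without IP 2 the ratio of Plec was -0.69. Ahnak, Prune2, Dst, Nfe2l1, Phf24 and Akap12 completed the group, with overlapping libraries.

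The naive libraries, which share no sample with the lesioned ones, gave the same contrast. Across 14705 genes the log2 IP over input of SNLD1 correlated with that of naive ganglia at a Spearman rho of 0.77, as a description, since IP 1, IP 3 and input 1 each resemble the naive library of the same name. In naive ganglia 1870 genes had all IP libraries above both inputs and 2420 had all below (12.7% and 16.5%). Of the genes above, 704 were shared, which is 46.4% of the SNLD1 genes and 37.7% of the naive genes. Of the genes below, 1161 were shared, which is 65.3% of the SNLD1 genes and 48.0% of the naive genes. Of the 1519 SNLD1 genes above, 7 lay below in naive ganglia, and of the 1778 below, 7 lay above. All 12 named genes above the inputs and 11 of 12 below were separated the same way in naive ganglia, the exception being Lars2. These genes were picked by p from a fit that also held the naive libraries, so this too is only a description. The difference of IP over input between SNLD1 and naive ganglia was tested in the same edgeR fit: 0 genes passed, 30 (0.204%) had an unadjusted p under 0.05, and the median standard error was 1.51. Class medians lay on the same side of all genes in both conditions for 41 of 42 classes. In naive ganglia the medians were -1.14 for oxidative phosphorylation, -1.07 for cytoplasmic ribosomal proteins, 1.22 for potassium channels and 1.13 for immediate-early genes. The exception was the satellite glia markers, at 0.37 in SNLD1 and -0.10 in naive ganglia.

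**Figure D5:**
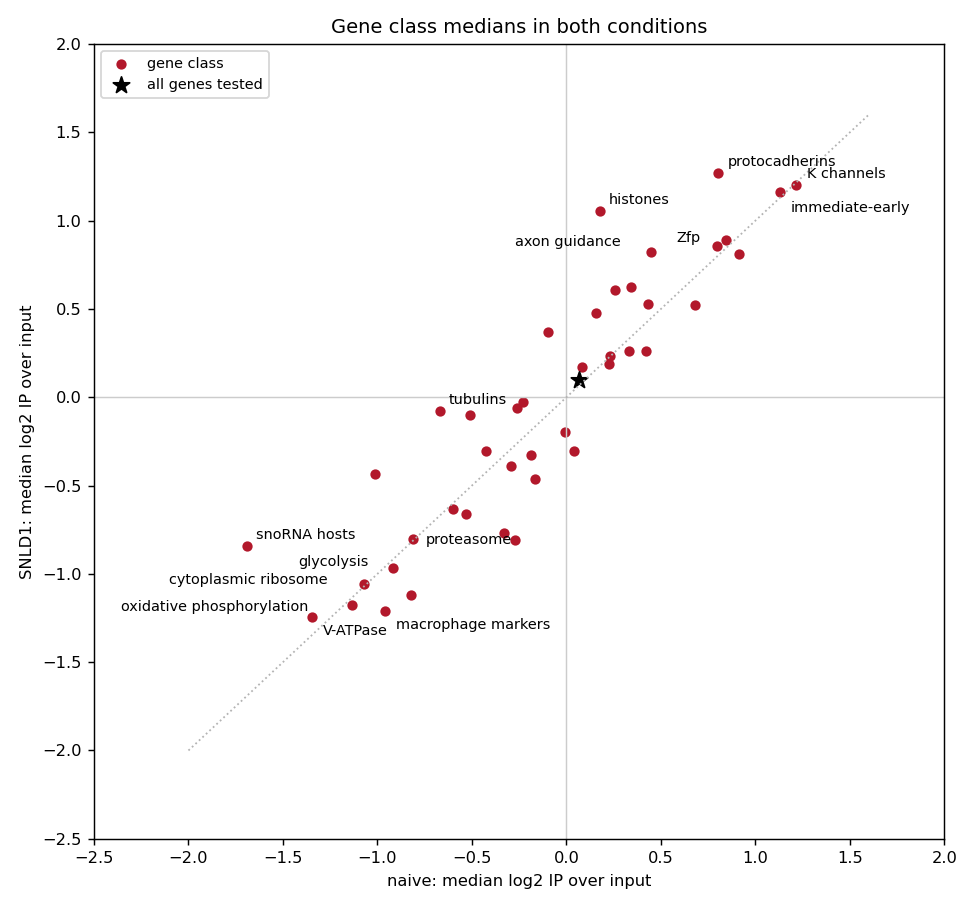
Median log2 IP over input of 42 gene classes in SNLD1 ganglia (vertical) and naive ganglia (horizontal), with a star for all genes and a dotted line where both are equal. Classes lie along the line from the vacuolar ATPase at -1.24 in SNLD1 to protocadherins at 1.27 in SNLD1.

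Markers checked the labelled tissue and other cells. All 24 sensory neuron markers were tested, and they summed to 14188, 26929 and 24410 CPM in SNLD1 IP 1, 2 and 3, against 28102 and 32289 CPM in SNLD1 inputs 1 and 2. Skeletal muscle markers summed to between 9.40 and 38.5 CPM in the 5 libraries. Neutrophil markers, 12 of 12 tested, summed to 1772, 2471 and 259 CPM in SNLD1 IP 1, 2 and 3, against 4298 and 117 CPM in SNLD1 inputs 1 and 2. S100a8 alone stood at 770, 335 and 69.0 CPM in the SNLD1 IP libraries and at 1389 and 43.9 CPM in the SNLD1 inputs. The 3 tested erythrocyte markers summed to 14.01, 13.6 and 4.33 CPM in the SNLD1 IP libraries and to 141 and 5.77 CPM in the SNLD1 inputs. Blood cell transcripts were thus high in input 1, IP 1 and IP 2 and low in IP 3 and input 2, and their part in the low value of Car1 was not tested. Macrophage markers had a median of -1.21, with 5 of 18 separated below and 1 above, and Adgre1 stood at 0, 0 and 0.68 CPM in the SNLD1 IP libraries and at 10.7 and 6.20 CPM in the SNLD1 inputs. These values set pulldown against input, so they do not measure the number of macrophages. Before TMM scaling, a count of 3 was 0.67, 1.95 and 0.31 CPM in SNLD1 IP 1, 2 and 3, so Adgre1 lay near the floor there. Where the inputs differ in a marker, fewer cells of a type and less RNA per cell cannot be told apart in bulk tissue. Myelinating Schwann cell markers were mixed, with a median of -0.30. Of 16 tested, 6 lay above 0 and 10 below, and 3 were separated below the inputs and 0 above. Over the mean input they stood at 0.075, -0.45 and -0.26 in SNLD1 IP 1, 2 and 3. Pmp22, a low member, stood at 354, 610 and 1597 CPM in the SNLD1 IP libraries and at 4745 and 2736 CPM in the SNLD1 inputs.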

How the data were processed

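The authors deposited raw counts per gene symbol for the m6A pulldown and input libraries and for the RNA-seq libraries. Their processing notes name Trimmomatic, STAR, DESeq2 and the build mm10, without roles, and the counter, its strand setting and its annotation are not stated in these sources. For miCLIP the authors deposited single-base sites, each with a share of mutated reads, from 1 library per condition. Of 24411 symbols, 23194 matched RefSeq names and 1096 a synonym. No exon map or protein was used, so position within transcripts was not analysed here.

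From the counts, edgeR 4.0.16 in R 4.3.3 filtered genes by expression in the 4 groups, scaled libraries by TMM and ran the quasi-likelihood test with Benjamini-Hochberg adjustment over 14705 genes. The SE is the log2 ratio divided by the root of F. Log2 CPM per library used a prior count of 2. A floor of 3 counts over a group stands in for 0. The script was tested on simulated counts. Classes were described by counts and medians, with no test.

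Named genes were, per direction, the 12 of smallest p among those with a mean of at least 5 CPM and separated libraries, up to 3 of smallest p per class, a fixed set of m6A, injury and noncoding genes, and the 10 with the most sites. Of the 12 genes below the inputs 1 is not reported here. S100a8 and the 4 sites printed for Gadd45g were picked with their values in view. The genes, classes and tests were chosen with earlier results of these data known. Alternatives were another scaling, tool or filter, leaving out libraries, and other site lists.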

Additional observations from a re-analysis of the deposited data

How the results depend on the processing

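Of 15 alternative fits, 11 called 0 genes, as the main fit did. With no filter on low counts 4 genes were called higher and 2 lower, and with only the 5 SNLD1 libraries 2 were called higher. Without IP 3 of both conditions, an alternative chosen after seeing the library correlations, 119 were called lower, and 2915 genes were separated above the inputs and 3797 below. Without SNLD1 input 1 and IP 2 together, 4978 and 4896 were separated. With 1 library left out at a time, the separated genes ranged from 1886 to 3876 above and from 2359 to 4003 below.

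The labels number IP and input alike without saying that a number marks a shared animal, and the deviations of same-numbered SNLD1 libraries correlated at -0.06. With the replicate block, 15 genes were called lower and 0 higher. The medians were -3.33 for cytoplasmic ribosomal proteins and -2.71 for the vacuolar ATPase, and the site difference was 1.44. SNLD1 IP 3 has no input of its number, so it did not enter these ratios. Pairing by number thus cannot be told apart here from leaving out IP 3.

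Of 630 class medians under the alternatives, 601 stayed on the same side of all genes. Without IP 3 of both conditions the vacuolar ATPase median was -2.74. With 1 library left out it ranged from -2.74 to -0.87, immediate-early genes from 0.59 to 2.31 and axon guidance genes from 0.39 to 1.78. The difference between genes with 10 or more sites and with none ranged from -0.021 to 1.80, and was -0.21 without input 1 and IP 2 together. Over single libraries it was 1.96, 2.05 and 1.28 for IP 1, 2 and 3 over input 1, and 0.20, 0.71 and -0.43 for IP 1, 2 and 3 over input 2. The cause was not tested.

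No sign changed for 95 of 106 named genes. Sprr1a turned to 0.10 under upper quartile scaling, 0.00060 with DESeq2, 0.18 with the replicate block and 0.32 without IP 3 of both conditions. Alkbh5 turned to 0.088 under upper quartile scaling, and Fto to -0.13 with limma-voom. Without input 1 and IP 2 together, Mettl14 was 0.088, Fto -0.42 and Plec -1.51. With 1 library left out, Sox11 ranged from -0.64 to 0.23, Sprr1a from -1.81 to 2.56, Fto from -0.37 to 0.62, Alkbh5 from -0.47 to 0.67, Ythdf1 from -0.33 to 1.81 and Plec from -0.69 to 3.86. Over the same fits Prune2 ranged from -0.71 to 0.93, Ahnak from -0.19 to 1.495, Dst from -0.16 to 1.75 and Nfe2l1 from -0.18 to 2.19.

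Depth limits the genes of low level most. Before TMM scaling, a count of 3 is 3.23 CPM in SNLD1 input 1 and 1.95 CPM in SNLD1 IP 2. These floors cover counting error only.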
